A study of Mus musculus with 24 samples.

Results

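The nuclear genes of oxidative phosphorylation were followed in RNA of the mouse choroid, the pigmented vascular layer behind the retina. Members were the protein-coding genes whose symbols begin with Ndufa, Ndufb, Ndufc, Ndufs, Ndufv, Uqcr, Cox4 to Cox8 or Atp5, together with Sdha, Sdhb, Sdhc, Sdhd and Cyc1, without the Ndufaf assembly factors. This rule used gene names and no measured value. It gave 91 members of 56065 genes in the table, 21599 of which were annotated as protein-coding. They were 40 of complex I, 4 of complex II, 9 of complex III, 19 of complex IV and 19 of complex V.

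RNA of 24 choroid samples was sequenced as SMART-Seq libraries, made by whole-transcript amplification from about 10 ng of total RNA. There were 4 libraries of wild type and 4 of Ceacam1-/- mice without laser (libraries 21, 22, 26 and 27, and 23, 24, 25 and 28), and 9 of wild type and 7 of Ceacam1-/- mice with laser (libraries 1, 2, 3, 11, 12, 13, 16, 17 and 19, and 4, 5, 6, 7, 14, 15 and 18). The Ceacam1-/- mice lacked exons 1 and 2 of Ceacam1, a cell adhesion molecule, in every cell, and the wild type mice were littermates on the C57BL/6J background. Laser treatment placed 6 spots of 150 mW, 200 µm and 100 ms on each eye to induce choroidal neovascularization, the growth of vessels through the membrane beneath the pigment epithelium. Age, sex and the time between laser and sampling are not in the sample labels, and nothing in them says whether each library came from a separate animal, so p-values measure the spread between these libraries. The paper gives a general age range and both sexes for its mice, but neither for single libraries, and it does not describe the laser treatment.

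Oxidative phosphorylation makes most of the ATP of resting cells in the inner mitochondrial membrane. Complexes I and II pass electrons from NADH and succinate to ubiquinone, complex III passes them on to cytochrome c, complex IV reduces oxygen, and complex V (ATP synthase) turns the proton gradient into ATP. Complex II is coded by the nucleus alone, and the others also hold subunits from mitochondrial DNA. Several complex IV subunits exist as a broadly expressed form and a form of heart and skeletal muscle, among them Cox6a1 and Cox6a2, Cox7a2 and Cox7a1, and Cox8a and Cox8b. The back of the eye carries several tissues with many mitochondria, such as photoreceptors, the retinal pigment epithelium (RPE) and the extraocular muscles.

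The promoters of 4 members named in the comparisons below are printed first, among them a muscle and a broad form of the same subunit. Sequences are those of RefSeq on GRCm38.p6 and run from 250 bases before to 50 bases after the gene's start, 5′ to 3′ on the gene's strand. Capitals mark exact matches, on either strand, to the binding motifs of NRF1 (GCGCANGCG), of the ETS factor GABPA (CCGGAAGT, which reads ACTTCCGG on the other strand) and to the E-box bound by myogenic factors (CAGCTG). Cox8b at chr7:140900397-140900696 and Cox8a at chr19:7217567-7217866 are the muscle and the broad form of 1 subunit of complex IV, Cox6a1 at chr5:115348909-115349208 is the broad partner of Cox6a2, and Sdha at chr13:74350191-74350490 codes for the flavoprotein of complex II. All 4 genes lie on the minus strand.
Cox8b: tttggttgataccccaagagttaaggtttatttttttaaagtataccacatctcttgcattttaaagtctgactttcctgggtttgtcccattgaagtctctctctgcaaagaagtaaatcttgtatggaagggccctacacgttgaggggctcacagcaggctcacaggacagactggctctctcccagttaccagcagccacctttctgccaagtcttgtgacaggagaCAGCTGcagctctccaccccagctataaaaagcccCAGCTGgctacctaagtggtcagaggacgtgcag
Cox8a: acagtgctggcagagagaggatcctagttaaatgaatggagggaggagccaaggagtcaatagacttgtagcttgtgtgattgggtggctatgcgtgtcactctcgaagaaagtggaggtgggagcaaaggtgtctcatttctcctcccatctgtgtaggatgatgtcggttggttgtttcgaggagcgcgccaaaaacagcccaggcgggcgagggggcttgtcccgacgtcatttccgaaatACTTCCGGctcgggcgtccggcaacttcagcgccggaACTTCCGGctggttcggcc
Cox6a1: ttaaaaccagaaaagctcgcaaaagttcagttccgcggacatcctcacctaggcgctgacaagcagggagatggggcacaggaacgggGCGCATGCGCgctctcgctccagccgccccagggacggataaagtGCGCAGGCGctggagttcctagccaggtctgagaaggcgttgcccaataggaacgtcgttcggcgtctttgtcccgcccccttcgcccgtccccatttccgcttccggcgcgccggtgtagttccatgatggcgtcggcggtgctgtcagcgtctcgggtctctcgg
Sdha: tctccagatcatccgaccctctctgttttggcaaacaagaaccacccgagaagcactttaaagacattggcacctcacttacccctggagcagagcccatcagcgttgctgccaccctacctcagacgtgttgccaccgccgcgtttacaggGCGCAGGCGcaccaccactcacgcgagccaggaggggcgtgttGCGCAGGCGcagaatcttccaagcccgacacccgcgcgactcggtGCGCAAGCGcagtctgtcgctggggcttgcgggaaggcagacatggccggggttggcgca

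The NRF1 motif stood in 13 of the 56 members found in the promoter table, or 23.2%, against 6.47% of all 27025 promoters. The YY1 motif (AAGATGGCG) was in 8.93% of members and 1.49% of all promoters, the GABPA motif in 7.14% and 4%, and the ESRRA motif (TCAAGGTCA) in 1.79% and 0.407%. The E-box was in 8.93% of members and 16.1% of all promoters. The MEF2 motif (CTAAAAATA) was in none of the 56 and in 0.503% of all promoters. These are matches of letters in 1 window per gene, searched on both strands, with the overlap of the short motifs with others not resolved. NRF1 and GABPA are known as activators of nuclear genes for mitochondrial proteins. The Cox8b window held a pair of E-boxes, while those of Cox8a, Cox6a1 and Sdha held GABPA or NRF1 matches. The other members with an E-box were Ndufa8, Ndufb10, Ndufs5 and Ndufv2 of complex I, and all of these but Ndufv2 also held an NRF1 match. The windows of Cox7a1 and Cox7a2, a further muscle and broad pair, held no match to any of the 6 motifs, and Cox6a2 was not among the 56.

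The tissue label was checked before the members were compared. Summed normalized counts per library ranged from 23704346 (library 14) to 35094410.0 (library 25); the depth in reads is not given by the table. Markers of the RPE, of endothelium and of melanocytes, all parts of such a dissection, were above 0 in every library, and so were all 12 markers of photoreceptors and all 18 of skeletal muscle. The photoreceptor markers summed to less than those of the RPE in 19 libraries and to more in 5. Their ratio was 1.68 in library 21 (wild type without laser), 2.42 in library 23 (Ceacam1-/- without laser), and 14.9, 10.9 and 26.97 in libraries 14, 15 and 18 (Ceacam1-/- with laser). The comparisons are also given without those of these 5 libraries that they hold.

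Ceacam1 itself had 958, 5027, 1242 and 4596 normalized counts in wild type libraries 21, 22, 26 and 27, and 405, 505, 508 and 1171 in Ceacam1-/- libraries 23, 24, 25 and 28. With laser, the 9 wild type libraries ran from 774 to 8367 and the 7 Ceacam1-/- libraries from 67.8 to 905. Ceacam1-/- libraries 28 and 15 therefore lay within the range of the wild type. The table sums the whole gene, including exons outside the deletion, so these values do not check the genotype label.

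The members together took 2.07%, 3.02%, 2.16% and 2.89% of the summed values in wild type libraries 21, 22, 26 and 27, and 1.31%, 2.87%, 3.94% and 2.36% in Ceacam1-/- libraries 23, 24, 25 and 28. With laser, the share ran from 1.39% to 2.30% (median 1.99%, n = 9) in wild type and from 1.48% to 1.90% (median 1.58%, n = 7) in Ceacam1-/- libraries. The group means were 2.54% ± 0.488 (SD, n = 4), 2.62% ± 1.09 (n = 4), 1.87% ± 0.347 (n = 9) and 1.63% ± 0.135 (n = 7) in the same order. The spread was widest in the Ceacam1-/- mice without laser, where libraries 23 and 25 held the lowest and the highest share of all 24, and the groups with and without laser overlapped in both genotypes.

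**Figure D1:**
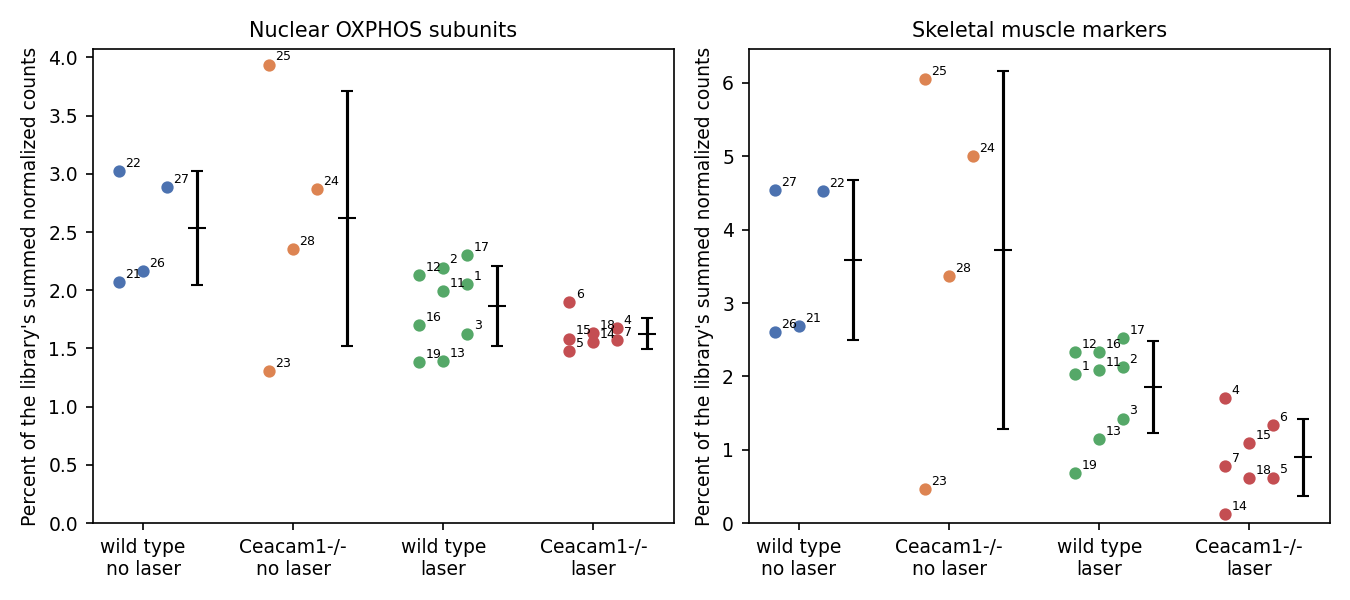
Share of each library's summed normalized counts (vertical axis, percent) taken by the 91 nuclear oxidative phosphorylation subunits (left) and by 18 skeletal muscle markers (right), by group. Each point is 1 library with its number, and the black bar gives mean ± SD. Libraries 23 and 25 stand lowest and highest for the subunits, at 1.31% and 3.94%, and within their group also for the muscle markers.

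Levels between genes were compared per kilobase of the canonical transcript. Ndufa4, placed here by its name with complex I although it is now counted to complex IV, was highest with 24721 normalized counts per kb as a mean over all libraries. Cox6c and Cox7c of complex IV followed with 23736 and 18193, and Atp5f1b, the catalytic beta subunit of ATP synthase, with 18014. Median levels per kb of the members tested were 3592 for complex I, 2486 for complex II, 3668 for complex III, 8034 for complex IV and 5792 for complex V. At the low end stood Cox5b-ps, an intronless copy of Cox5b annotated as coding, with 115 per kb, Atp5mc2, a c-ring subunit gene, with 329, and Cox4i2, the form of Cox4 known from lung and pericytes, with 517. These levels rest on transcript lengths from a GENCODE release other than the one used for counting.

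Of the 91 members, 87 reached a mean of 10 normalized counts and entered the tests. The other 4 were Ndufb11b, Cox7b2, Cox8c and a second gene identifier of Atp5po, each with a mean below 1. Reads of the members may be shared with near-identical pseudogenes: 47 members had 145 annotated copies, and of the members tested Ndufb4 and Ndufab1, both of complex I, had over 5% of their summed values in copies (49.1% and 13.5%), so their values are uncertain. Ndufb11b, which was not tested, had 75% of its small sum in its copy.

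The members varied together. After each group's mean was taken off, the correlation of log2 values between members had a median of 0.867 over 3741 pairs of members and 24 libraries. It was 0.912 within and 0.846 between complexes. These correlations describe libraries that share dissection, depth and normalization. Library 25 held the highest value of all 24 libraries for 80 of the 87 members and library 23 the lowest of its group for 86. In wild type with laser, library 17 was highest for 55 members and library 19 lowest for 64. Sdha went least with the rest (median r 0.148), followed by Cox4i2 (0.310), Ndufa4l2 (0.444), a hypoxia-induced relative of Ndufa4, and Ndufs1 (0.468), an iron-sulfur subunit of the electron-input arm of complex I.

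**Figure D2:**
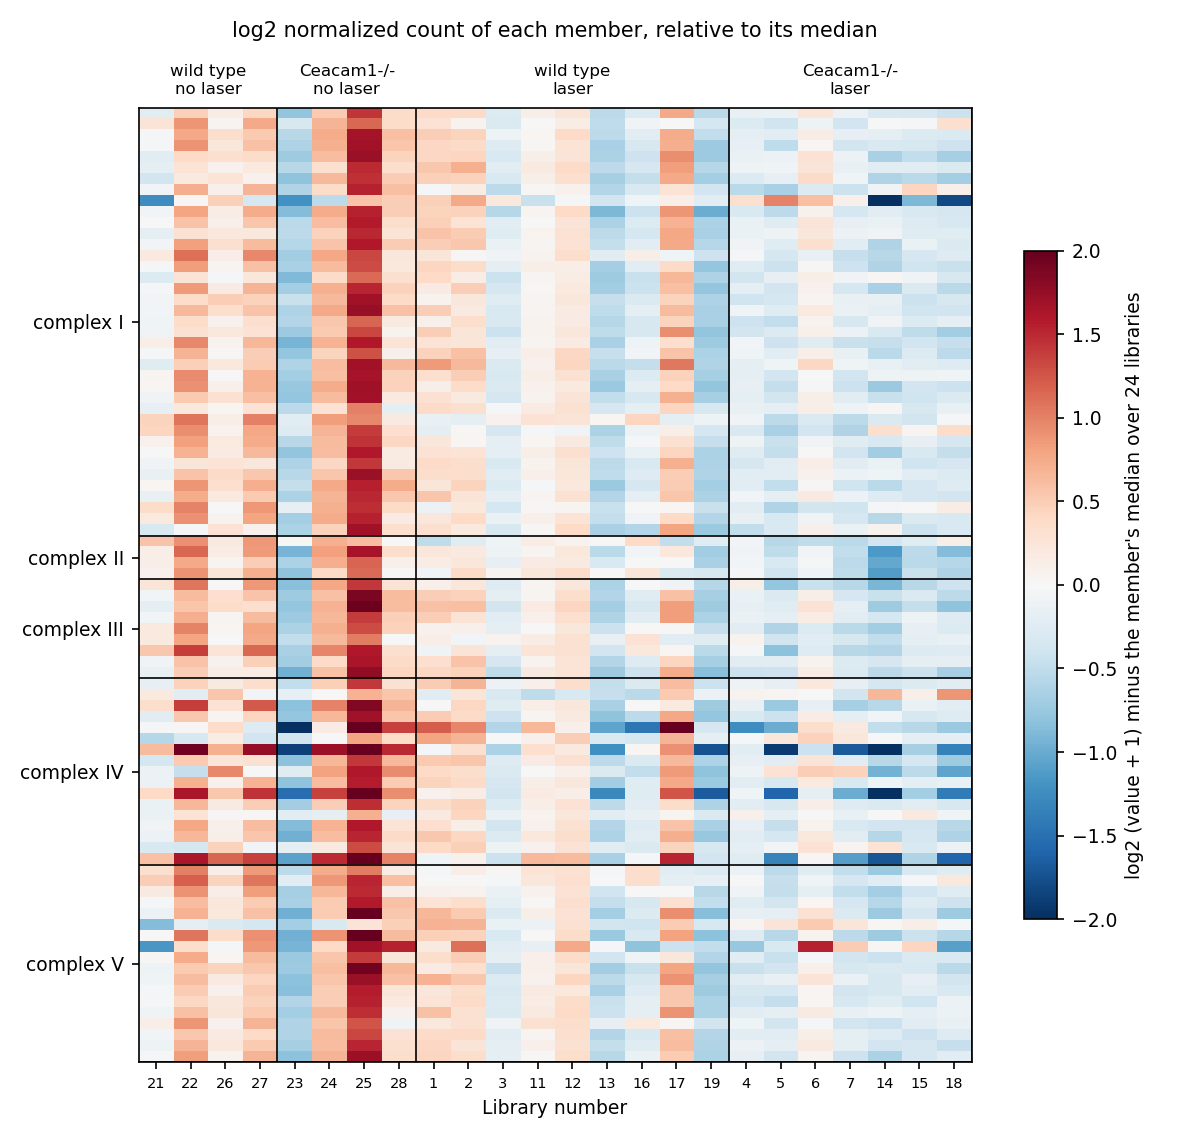
Heat map of the 87 members tested (rows, in 5 complexes) over 24 libraries (columns, by group and library number). Colour gives log2 of the normalized count plus 1, less the member's median over all libraries, from blue (lower) to red (higher), limited to ±2. Library 25 is red and library 23 blue across nearly all rows of every complex.

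Laser against no laser was compared first in wild type mice. Most members had lower means after laser, but 1 passed the test. Of 87 members, 81 had a log2 difference below 0, with a median of -0.34 against -0.10 over all 19950 genes tested, 57.9% of which lay below 0. At an adjusted p under 0.05 (limma, Benjamini-Hochberg over all genes) only Sdha was called, and it fell. The background was 5.28% of all genes called in either direction, 1.05% called lower and 4.23% called higher, so the members' count was at its level. At an unadjusted p under 0.05, 17 members were lower and 2 higher, while 3993 of the 19950 genes passed that limit in either direction. Taken in either direction, the members' share was near that of all genes. The share of all genes lower at that limit is not given here, so the 17 have no matching background.

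Sdha carries the succinate dehydrogenase activity of both complex II and the citric acid cycle. Its normalized counts were 13157, 16809.7, 10060.1 and 16177 in wild type libraries 21, 22, 26 and 27. With laser they ran from 6238 to 11670.4, with a median of 8411 in 9 libraries. The ranges overlapped through library 26. The log2 difference was -0.74 (SE 0.19, adjusted p = 0.0242), from a mean of 14051 ± 3102 (SD, n = 4) to 8428 ± 1755 (n = 9). The adjusted p was 0.0665, 0.103 and 0.115 without libraries 21, 22 and 27, and ran from 0.000192 to 0.0474 under the settings that kept all of them.

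The core members of the other complexes lay lower after laser without passing the test. Atp5f1b had 38714, 63452, 37508 and 58154 normalized counts without laser and from 24428 to 35248 (median 27518) with it. Those ranges do not overlap, with a log2 difference of -0.74 (SE 0.23, adjusted p = 0.064). Uqcrfs1, the Rieske iron-sulfur protein of complex III, had 6941, 12477, 5779 and 10560.5 without laser and from 3262 to 5862 with it, a difference of -0.85 (SE 0.28, adjusted p = 0.0813). Ndufs1 differed by -0.62 (adjusted p = 0.0739), Cox5a of complex IV by -0.88 (adjusted p = 0.119) and Cyc1, the cytochrome of complex III, by -0.64 (adjusted p = 0.21). For all but Atp5f1b the groups overlapped.

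By complex, median log2 differences in wild type were -0.36 for I (37 of 39 lower), -0.52 for II (4 of 4), -0.34 for III (9 of 9), -0.27 for IV (14 of 17) and -0.32 for V (17 of 18). The members with positive values included Cox6a1, at 0.49 (SE 0.23, adjusted p = 0.236), Ndufa4l2, at 0.31, and Atp5if1, the inhibitor of ATP synthase, at 0.52 (SE 0.23, adjusted p = 0.198). Atp5if1 is named here after its values were seen.

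In Ceacam1-/- mice 3 members fell with laser, the muscle forms Cox8b and Cox6a2 and the complex I subunit Ndufs1. Of 87 members, 86 had a log2 difference below 0, with a median of -0.71 against 0.02 over all 19950 genes, 48.8% of which lay below 0. The background was 3.72% of all genes called in either direction and 1.65% called lower. The members' count of 3, all lower, stood near the share called in either direction and above the 1.65% called lower. At an unadjusted p under 0.05, 65 members were lower and none higher, while 3997 of the 19950 genes passed that limit in either direction. The 3 called became 1 with a covariate for Y-linked genes or without the variance trend. They became 0 with no filter on low values or with only the Ceacam1-/- groups in the fit.

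Cox8b had 1042, 6209, 15902 and 4359 normalized counts in Ceacam1-/- libraries 23, 24, 25 and 28. With laser it ran from 672 to 2225, with a median of 1026 in 7 libraries. Library 23 lay among the laser libraries and library 25 far above all others. The log2 difference was -2.003 (SE 0.51, adjusted p = 0.0303). Cox6a2 had 1401, 16646, 37154 and 14533 in the same libraries and from 308 to 4356 (median 2001) with laser. Again library 23 fell within the laser range, and the log2 difference was -2.52 (SE 0.71, adjusted p = 0.0481). Ndufs1 had 2858, 5896, 6434 and 3744 without laser and from 2301 to 3228 (median 2702) with it. Its log2 difference was -0.74 (SE 0.21, adjusted p = 0.0481), with library 23 once more inside the laser range. Leaving out 1 library without laser, or library 14, gave differences from -2.72 to -1.41 for Cox8b, from -3.50 to -1.92 for Cox6a2 and from -0.96 to -0.57 for Ndufs1, each largest in size without library 23 and smallest without library 25. Without library 24 or library 25 none of the 3 passed, and Cox6a2 did not pass without library 28 or 14 nor Ndufs1 without library 14. Cox7a1, the muscle form of a further complex IV subunit, differed by -1.93 (SE 0.60, adjusted p = 0.0714).

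The core members Uqcrfs1, Cyc1, Cox5a, Atp5f1b and Sdha differed by -0.96, -0.91, -1.05, -0.82 and -0.65 on the log2 scale in Ceacam1-/- mice, with adjusted p of 0.0676, 0.0877, 0.0801, 0.0577 and 0.0684. By complex the medians were -0.71 for I, -0.71 for II, -0.85 for III, -0.69 for IV and -0.68 for V, and all members but Atp5if1 (0.23, adjusted p = 0.609) lay below 0.

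The number of members called after laser rested on single libraries. In Ceacam1-/- mice it was 75 without library 23, against a background of 6.80% called lower, and 0 without library 24 or without library 25 (41 and 15 genes of all tested called lower). The median difference was -1.08 without library 23, -0.65 without library 24 and -0.35 without library 25. Without library 14 it was 1 (1.13% of all genes called lower). Without libraries 14, 15 and 18 it was 5 (2.57% of all genes called lower), and without all 5 libraries rich in photoreceptor markers it was 60, with a background of 6.26% called lower. In the wild type the count was 0 when library 21, 22 or 27 was left out (68, 61 and 44 of all genes called lower), 3 when library 26 was (1.01% of all genes called lower), and 11 without the 5 libraries (2.63% called lower). It was 8 with quantile scaling (0.962% called lower) and 8 when the fit held only the wild type groups (3.51% called lower). When limma weighted each library by how far it spread, 59 members were called in wild type (58 lower and 1 higher) and 60 in Ceacam1-/- mice, with 16.4% and 8.30% of all genes called lower.

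**Figure D3:**
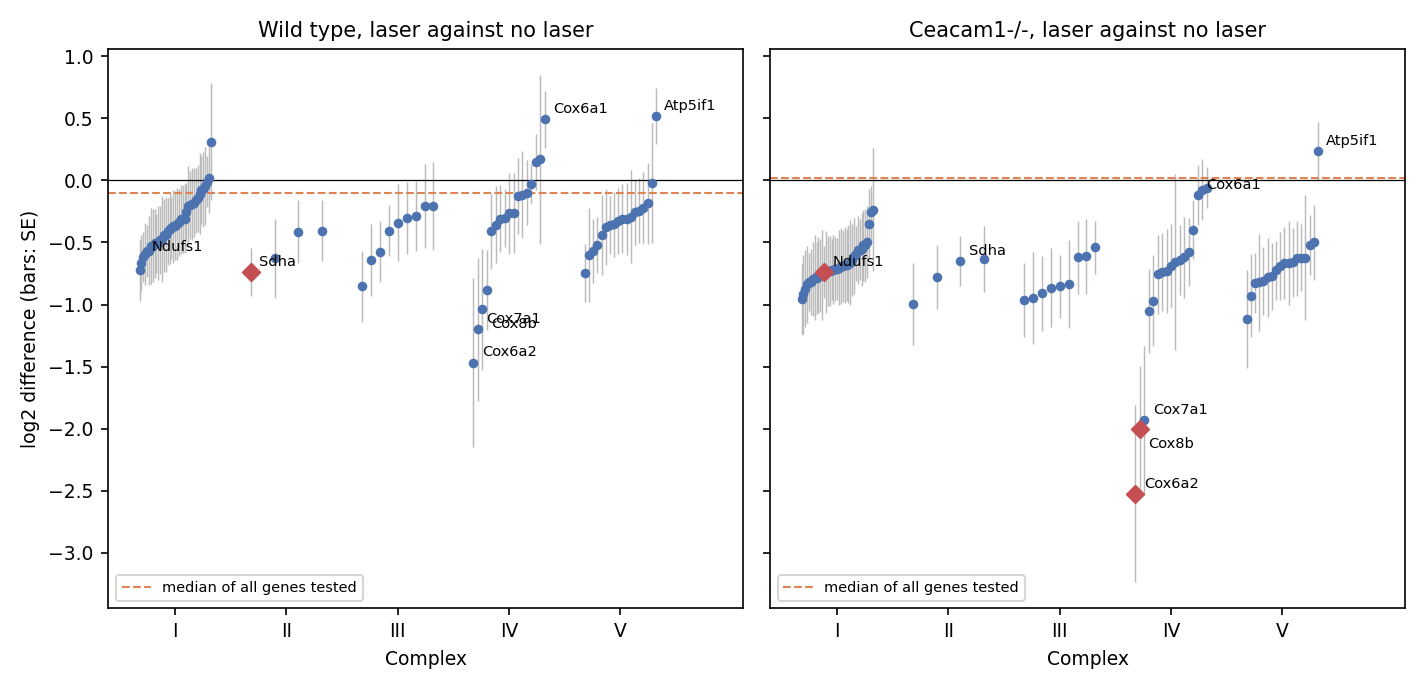
log2 difference of each of the 87 members between laser and no laser (vertical axis, bars SE) by complex, in wild type (left) and Ceacam1-/- mice (right). Red diamonds are members at an adjusted p under 0.05, and the dashed line is the median of all genes tested (-0.10 and 0.02). Most members lie below it in both genotypes, and the muscle forms Cox6a2, Cox8b and Cox7a1 lie lowest.

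Skeletal muscle markers moved with these results. All 18 had lower means after laser in both genotypes, with a median of -0.94 for the wild type and of -2.06 for Ceacam1-/- mice. By limma 0 and 1 (Ryr1) of them were called, and 3 and 17 passed an unadjusted p under 0.05. Their summed share was 2.69%, 4.53%, 2.60% and 4.53% in wild type libraries 21, 22, 26 and 27, and 0.462%, 5.00%, 6.05% and 3.37% in Ceacam1-/- libraries 23, 24, 25 and 28. With laser it ran from 0.677% to 2.52% in wild type and from 0.126% to 1.71% in Ceacam1-/- libraries. The most abundant of them was Atp2a1, the calcium pump of fast muscle, and none was at 0 in any library. In such bulk samples fewer cells of a type and less RNA per cell cannot be told apart.

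Over the 24 libraries the correlation of members with the mean log2 value of the muscle markers had a median of 0.768, from -0.06 for Cox4i2 to 0.982 for Cox6a2. For 81 of 87 members it was over 0.5. Within the laser groups the median was 0.827 in wild type (79 members over 0.5) and 0.498 in Ceacam1-/- libraries (43 over 0.5). With the photoreceptor markers the median over the 24 libraries was -0.56. These are descriptions of libraries that share their normalization. For 6 core members the relation was also tested by permutation, with p adjusted over 36 correlations. The permutations over all 24 libraries ran across the groups, so their p also takes in differences between group means. Over all 24 libraries, Pearson's r was 0.891 for Cyc1, 0.856 for Uqcrfs1, 0.846 for Cox5a, 0.762 for Atp5f1b, 0.73 for Ndufs1 and 0.608 for Sdha, with Spearman's coefficients of 0.904, 0.942, 0.926, 0.824, 0.77 and 0.602. Adjusted permutation p of r were 5.14e-05 for the first 4, from the smallest p that 100000 permutations can give (1e-05), then 0.000216 and 0.00435, and those of Spearman's coefficient were at most 0.0059. Without the pair of libraries farthest from the median muscle value (23 and 14), r was 0.923, 0.921, 0.92, 0.831, 0.799 and 0.675.

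Within single groups the relation differed between core members. In the 9 wild type laser libraries, r was 0.904 for Cox5a, 0.878 for Uqcrfs1 and 0.855 for Cyc1 (adjusted exact permutation p = 0.00382, 0.00653 and 0.013), while Spearman's coefficient was 0.733, 0.65 and 0.617 (adjusted exact p = 0.07, 0.141 and 0.159). Without libraries 13 and 19 r was 0.667, 0.561 and 0.555, so that the relation in this group rested in part on those libraries. It was 0.463 for Atp5f1b, 0.176 for Ndufs1 and 0.023 for Sdha (adjusted exact p = 0.297, 0.823 and 0.982). In the 7 Ceacam1-/- laser libraries r ran from 0.127 for Ndufs1 to 0.756 for Cyc1, and none passed (lowest adjusted exact p = 0.151). For Ndufs1, Sdha and Atp5f1b the relation over all libraries did not pass the test within either laser group. The groups without laser held 4 libraries each, too few for a correlation. In the wild type, libraries 22 and 27 had more muscle markers than 21 and 26 and also more of all 6 core members. Of the 6, 5 followed the order of the muscle markers (libraries 23, 28, 24 and 25, from low to high) in Ceacam1-/- mice, while Sdha was lowest in library 28 and highest in library 24.

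**Figure D4:**
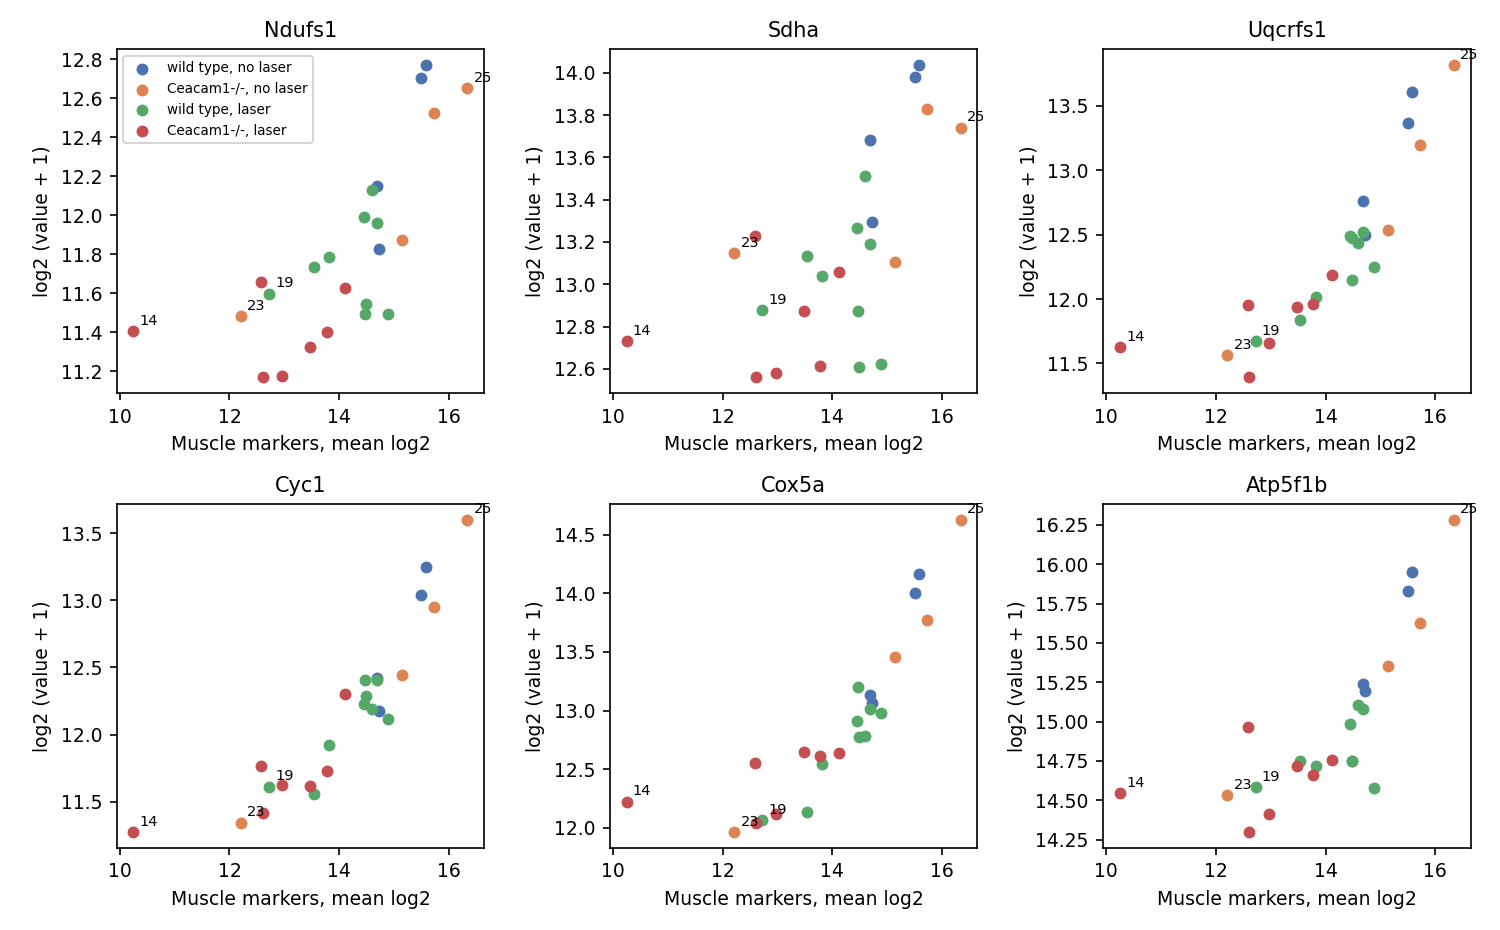
log2 normalized count plus 1 of 6 core members (vertical axes) against the mean log2 value of 18 skeletal muscle markers (horizontal axes), 1 point per library, coloured by group, with libraries 14, 19, 23 and 25 numbered. Over all 24 libraries Uqcrfs1, Cyc1 and Cox5a rise with the muscle markers (r from 0.846 to 0.891), and Ndufs1 and Sdha spread widely at the same marker value in the laser libraries.

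In a fit with the muscle marker mean as a covariate, the members' median laser difference was -0.03 for the wild type and -0.04 for Ceacam1-/- mice, against -0.10 and -0.08 over all genes. Then 0 members were called in Ceacam1-/- mice, where 0.150% of all genes were called lower. In wild type, with 8.08% called lower, 4 members were called, Sdha (-0.65, adjusted p = 0.0247) and Cox6a2 (-0.45, adjusted p = 0.0484) lower, and Cox6a1 (0.64, adjusted p = 0.0457) and Atp5if1 (0.69, adjusted p = 0.0298) higher. The share of all genes called higher in this fit is not given here, so Cox6a1 and Atp5if1 have no matching background. The marker value differed between the groups compared, so this fit cannot tell laser and muscle content fully apart. With the photoreceptor markers as covariate the median was -0.51 in wild type (9 called, 2.29% of all genes called lower) and -0.44 in Ceacam1-/- mice (1 called, with 200 of all 19950 genes called lower).

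The ratio of muscle to broad isoform, which does not depend on a library's size factor, was compared by two-sided exact permutation tests, with p adjusted over 20 tests (5 pairs in 4 comparisons). The ratio of Cox6a2 to Cox6a1 was lower after laser in wild type mice. The log2 ratio was 0.84, 1.90, 0.18 and 1.77 in wild type libraries 21, 22, 26 and 27 and ran from -1.92 to 0.02 (median -0.73) with laser, so the groups did not overlap. The mean went from 1.17 ± 0.811 (SD, n = 4) to -0.79 ± 0.642 (n = 9), a difference of -1.96 (p = 0.0014, exact permutation test, the smallest this design allows, adjusted p = 0.028). Cox6a2 made up 68.4% ± 12.1 of the summed normalized counts of both forms without laser and 37.3% ± 9.98 with it.

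The ratio of Cox8b to Cox8a fell by 1.18 on the log2 scale with laser in wild type mice (adjusted exact permutation p = 0.0468). Cox8b made up 37.6% ± 9.35 of the summed normalized counts of both forms without laser (n = 4) and 21.3% ± 6.55 with it (n = 9). Its transcript is longer than that of Cox8a. Per kb its share was lower, at 10.9%, 20.6%, 9.66% and 15.0% in wild type libraries 21, 22, 26 and 27 and from 4.49% to 12.2% with laser. For Cox7a1 to Cox7a2 the difference was -0.89 (adjusted exact p = 0.0503). In Ceacam1-/- mice the same 3 ratios differed by -2.40, -1.61 and -1.29 (adjusted exact p = 0.0618, 0.0606 and 0.0848), and in each of them library 23 lay within the range of the laser libraries. Without library 23 the differences were -3.19, -2.13 and -1.70, all past the adjusted threshold. In wild type the Cox6a2 and Cox8b ratios differed by -1.72 and -0.94 without library 22 and by -1.76 and -1.13 without library 27, which no longer passed. With 3 against 9 libraries the smallest exact p is 0.00455, which passes the adjustment over 20 tests only where several tests come near it. They also missed it without the 5 libraries rich in photoreceptor markers, at -2.07 and -1.30, and Cox7a1 to Cox7a2 was then -0.95. Without library 21 alone the same wild type values passed for Cox6a2 and Cox8b (adjusted exact p = 0.0468 for both), since the adjustment also runs over the other comparisons. The 3 ratios in Ceacam1-/- mice were -2.14, -1.37 and -0.96 without libraries 14, 15 and 18, and -2.92, -1.89 and -1.38 without the 5 libraries. These values have no usable exact permutation test, since its smallest p is 0.0286 in both cases. That p could not pass the adjustment unless most of the 20 tests reached it.

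Of the pairs whose restricted form is not one of striated muscle, Ndufa4l2 to Ndufa4 had a difference of 0.82 with laser in wild type (adjusted exact p = 0.0559) and 0.44 in Ceacam1-/- mice (adjusted exact p = 0.681). Without library 26 the wild type difference was 1.15 and passed (adjusted exact p = 0.0374). Cox4i2 to Cox4i1 differed by -0.21 in wild type and 0.51 in Ceacam1-/- mice (adjusted exact p = 0.611 and 0.268). Without the 5 libraries these were 0.64 and 1.63 for Ndufa4l2 to Ndufa4 and -0.059 and 0.31 for Cox4i2 to Cox4i1, with the limits on the tests given above. Among the Ceacam1-/- laser libraries, Ndufa4l2 was lowest in 14, 18 and 15, with 167, 212 and 399.8 normalized counts. The other 4 of that group ran from 803 to 1475. Within that group, libraries 14, 15 and 18 also had the highest photoreceptor markers. Libraries 21 and 23, without laser and also rich in these markers, had 315 and 321 normalized counts of Ndufa4l2. The other libraries without laser ran from 518 to 1102.

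**Figure D5:**
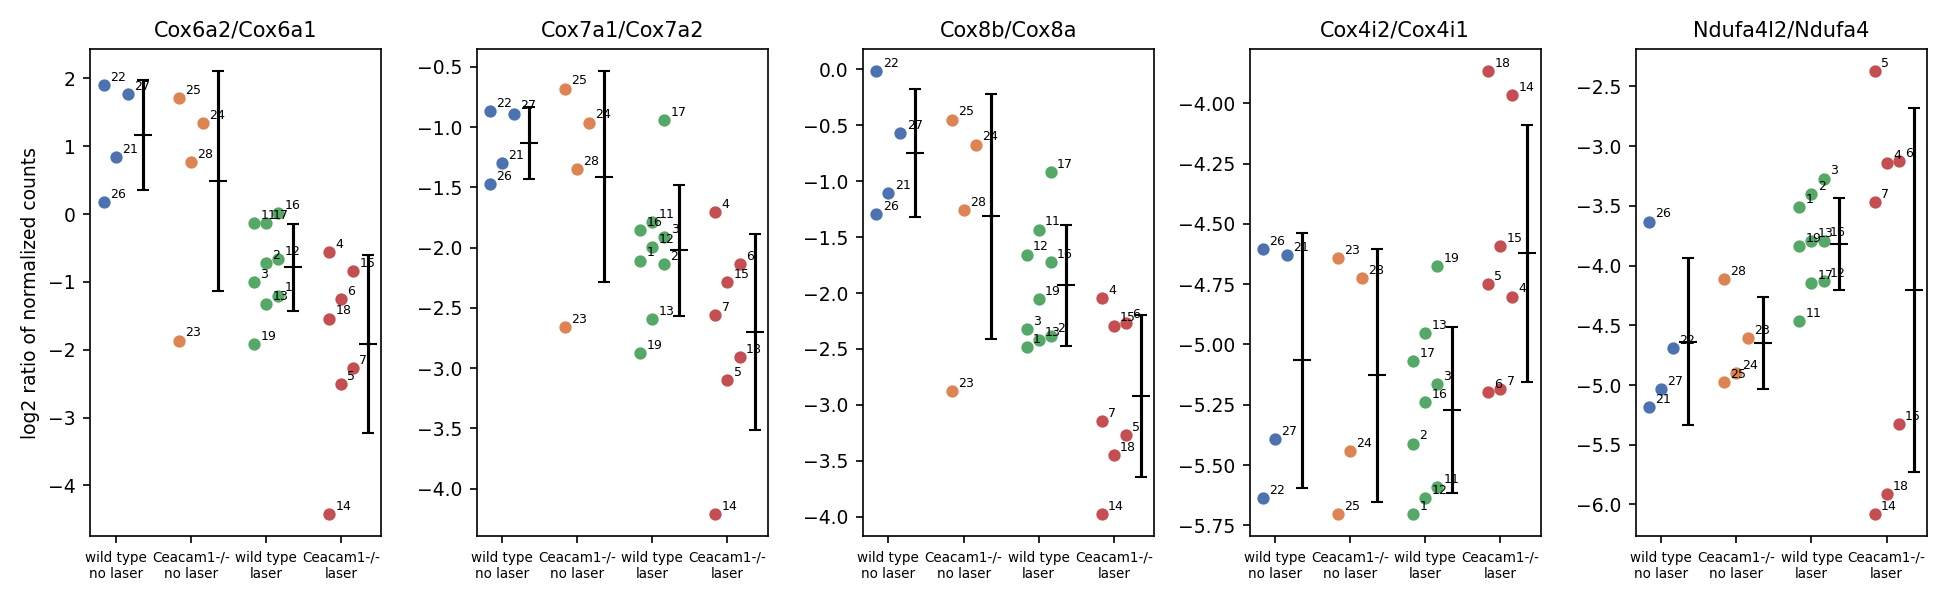
log2 ratio of normalized counts of the restricted to the broad form (vertical axes) for 5 pairs, by group. Each point is 1 library with its number, and the black bar gives mean ± SD. For Cox6a2/Cox6a1 all 4 wild type libraries without laser lie above the 9 with laser, and library 23 lies with the laser libraries in the 3 muscle pairs.

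Genotype was compared next, first without laser, where the study asked whether loss of Ceacam1 alters choroidal transcription. No member passed the test. Of 87 members, 0 were called by limma and 0 passed an unadjusted p under 0.05, with a background of 0% of 20057 genes called and 1.53% at the unadjusted limit. The study, by DESeq2 with sex as a covariate, did report some differentially expressed genes in this comparison, while describing no major differences. The limma fit used log2 values without sex, so its 0% is not a repeat of that test. In Ceacam1-/- mice 63 members had the higher mean, and the median log2 difference was 0.11 against -0.02 over all genes. The median was 0.50 without library 23, -0.24 without library 25, -0.02 without library 21 and 0.38 without libraries 21 and 23. Lower in Ceacam1-/- mice were 17 of 18 muscle (median -0.29), all 12 photoreceptor (median -1.64) and 7 of 10 RPE markers (median -0.16). All 13 citric acid cycle enzymes also lay lower (median -0.24), while 12 of 13 subunits from mitochondrial DNA lay higher (median 0.22). In these lists 0 genes were called by limma and 0 passed an unadjusted p under 0.05. Intervals were wide: for Atp5f1b the difference was -0.11 (95% confidence interval -1.06 to 0.85), for Ndufs1 -0.23 (-0.97 to 0.51) and for Cox6a2 -0.21 (-2.25 to 1.82). The members with the lowest p were Cox6a1 (0.47), Cox6b2 (0.68), a form of Cox6b known from testis, and Cox8a (0.45), each with an adjusted p of 0.999. Differences within these intervals remain possible with 4 against 4 libraries, and larger ones may also be missed after adjustment.

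With laser, members tended lower in Ceacam1-/- than in wild type mice, and 0 of 87 were called. The background was 0.0202% of 19757 genes called. A log2 difference below 0 was found for 83 members, against 48.8% of all genes, with a median of -0.25 against 0.01, and 16 members were lower at an unadjusted p under 0.05 (limma), a limit passed by 22.7% of all genes in either direction. Without libraries 14, 15 and 18, 81 members lay below 0 with a median of -0.18 against 0.02 over all genes, 0 were called (0.0104% of all genes were) and 6 were lower at an unadjusted p under 0.05. Among all 16 libraries the lowest p values were those of Cox8b (-1.09, SE 0.31, adjusted p = 0.121), of Sdhd, a membrane anchor of complex II (-0.52, adjusted p = 0.125), and of Atp5f1a, the alpha subunit of ATP synthase (-0.44, adjusted p = 0.131). Cox8b ran from 1401 to 6336 (median 2166) normalized counts in 9 wild type and from 672 to 2225 (median 1026) in 7 Ceacam1-/- libraries. Sdhd ran from 3352 to 5445 (median 4320.1) and from 1928 to 4099.8 (median 3057). The groups overlapped for both.

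Among isoform ratios, Cox8b to Cox8a was lower in Ceacam1-/- than in wild type mice with laser, by -0.99 (adjusted exact permutation p = 0.0468), and Cox4i2 to Cox4i1 was higher, by 0.65 (adjusted exact p = 0.0468). The groups overlapped for both ratios. Without libraries 14, 15 and 18 the differences were -0.75 and 0.29 and neither passed. Ndufa4l2 to Ndufa4 differed by -0.39 (adjusted exact p = 0.648) and, without those libraries, by 0.79 in the other direction (adjusted exact p = 0.0559). All 18 muscle markers were also lower in the Ceacam1-/- libraries with laser (median -1.34), all 12 photoreceptor markers higher (median 2.08) and all 10 RPE markers lower (median -1.58). Of these 0 were called by limma, and 17, 8 and 9 passed an unadjusted p under 0.05. Also lower were all 10 pericyte and smooth muscle markers (median -0.77, 5 at that limit), all 10 endothelial (median -0.54, 2), all 7 melanocyte (median -1.07, 1), all 12 myeloid (median -0.48, 2), all 7 fibroblast (median -0.42, 0) and all 4 tested adipocyte markers (median -1.15, 0), with 0 called by limma. With the muscle markers as a covariate the members' median was 0.02 and with the photoreceptor markers -0.08. When limma weighted each library, 2 members were called, both lower in Ceacam1-/- mice, as were 1.06% of all genes.

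Whether laser acted differently in the 2 genotypes was tested by the interaction term over all 24 libraries. No member passed: 0 of 87 were called by limma and 0 had an unadjusted p under 0.05, with a background of 0% of 19950 genes called and 6.22% at the unadjusted limit. The interaction was below 0 for 84 members, against 49.5% of all genes, with a median of -0.36 against 0.01. With the photoreceptor markers as a covariate it was below 0 for 19 of the 87. Without libraries 14, 15 and 18 it was below 0 for 86 members (median -0.29), and without all 5 libraries rich in photoreceptor markers also for 86 (median -0.56), with 0 called by limma and 0 at an unadjusted p under 0.05 in both. The lowest adjusted p was 0.640, shared by Cox6a1 (-0.61, 95% confidence interval -1.30 to 0.08), Cox6b2 (-0.85, -1.90 to 0.20) and Cox8a (-0.54, -1.22 to 0.13). The larger number of members called in Ceacam1-/- than in wild type mice is therefore not shown to be a difference between genotypes.

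Other mitochondrial genes were read beside the members. Among all genes 1.05% were called lower and 57.9% lay below 0 after laser in wild type, and 1.65% and 48.8% in Ceacam1-/- mice, and the muscle markers had lower means in both comparisons. Their part in the values of these lists was not tested. All 13 oxidative phosphorylation subunits coded by mitochondrial DNA had lower means after laser in both genotypes, with medians of -0.28 and -0.57. By limma 0 were called, and 1 in each genotype passed an unadjusted p under 0.05, mt-Co1 in wild type and mt-Nd2, a core subunit of complex I, in Ceacam1-/- mice (-0.91, adjusted p = 0.164). For mt-Co1, the catalytic subunit of complex IV, the log2 difference was -0.89 in wild type (adjusted p = 0.217) and -0.84 in Ceacam1-/- mice (adjusted p = 0.266). Of 52 assembly factors of the complexes, 40 lay lower in the wild type comparison and 45 in that of Ceacam1-/- mice, with 3 and 1 falling. Among them were Uqcc1, needed to assemble complex III, at -0.74 in wild type (adjusted p = 0.0203), Ndufaf4, an assembly factor of complex I, at -0.63 in wild type (adjusted p = 0.0257), and Ecsit, which also assembles complex I, at -0.75 in Ceacam1-/- mice (adjusted p = 0.0499).

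All 13 enzymes of the citric acid cycle had lower means in both laser comparisons, with medians of -0.64 and -0.83, and 1 and 3 fell. Idh3a, a subunit of NAD-dependent isocitrate dehydrogenase, fell by 0.93 on the log2 scale in wild type (adjusted p = 0.0324). Of 8 electron carriers, ADP/ATP carriers and channels, Vdac1, the main channel of the outer membrane, fell in both (-0.85, adjusted p = 0.0363, and -0.92, adjusted p = 0.0371). Of 19 regulators of mitochondrial biogenesis, Perm1, a muscle regulator of oxidative genes, fell in both, with log2 differences of -2.35 and -2.12 (adjusted p = 0.00459 and 0.0206), and was the only one called. Esrra, a nuclear receptor that drives these genes, differed by -0.71 in wild type (adjusted p = 0.0639).

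Markers of other cells moved with laser as well. Of 12 myeloid markers 11 rose in the wild type and 6 did so in Ceacam1-/- mice (medians 2.09 and 1.41), with Ptprc, the pan-leukocyte antigen, up by 2.21 in wild type (adjusted p = 6.79e-05). Of 7 fibroblast markers 2 and 1 rose, among them Lum in both. Photoreceptor markers had a median of -1.40 for the wild type and of 2.23 for Ceacam1-/- mice, and RPE markers of -0.08 and -1.55, with 0 called by limma. At an unadjusted p under 0.05 there were 9 RPE markers in Ceacam1-/- mice, and none in the other 3 cases. Of 10 endothelial, 10 pericyte and smooth muscle, 7 melanocyte, 4 tested adipocyte and 9 lens markers, 0 were called by limma in either laser comparison. At an unadjusted p under 0.05 there were 2 endothelial markers in wild type, and 1 pericyte, 1 adipocyte and 2 lens markers in Ceacam1-/- mice. The part of these cell types in the members' values was not tested beyond the covariate fits with muscle and photoreceptor markers.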

How the data were processed

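Per the labels, SMART-Seq libraries were made from choroidal RNA. The authors quantified reads with Salmon 1.10.3 on GRCm39 and imported them into DESeq2 1.44.0. The deposited signal values are normalized counts, divided by the authors by size and transcript-length factors for each library. Whole reads could not be recovered, so count tests were not run. The authors removed 1 outlier library, which the sources used here do not identify. After that removal they compared 4 wild type with 4 Ceacam1-/- choroids, the same numbers as the libraries without laser here. Differences were tested with limma 3.58.1 (R 4.3.3, variance trend) on log2 of the value plus 1, over genes with a mean of at least 10, with Benjamini-Hochberg adjustment over all genes and a threshold of 0.05. Laser and the interaction were fitted in 24 libraries, genotype in 8 and in 16. Scripts were tested on simulated data. Groups came from the sample labels. Annotation matched 99.1% of identifiers. Copies were sought with BLAST 2.17.0 at 85% identity over 80% of the length. No pair of libraries held the same values (highest correlation 0.970). Named members were the 5 isoform pairs, 6 core subunits and, in each comparison, the members called or the 3 with the lowest p. Members and lists were chosen with earlier results of these data known.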

Additional observations from a re-analysis of the deposited data

Results flagged for a closer look

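One value stood apart from its group. In Ceacam1-/- mice with laser, Cox7a2 had a log2 value of 12.66 in library 6 (6459.8 normalized counts), while the other 6 libraries lay between 4725 and 5101 normalized counts. The gap to the nearest library exceeded Dixon's limit for 7 samples. Among 100 groups examined, 1 value was marked in this way, and chance marks about 1 in 20 groups. Library 6 also held the highest value of its group for 65 of the 87 members.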

How the results depend on the processing

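No paired analysis was possible because library numbers are not shared between groups. Other pseudocounts and filters, quantile and upper-quartile scaling, variances without a trend or robust to outliers, library weights, covariates for Y-linked, muscle or photoreceptor genes, only the groups compared and leaving out single libraries were tried. Single libraries left out were each of those without laser in turn and, for the members in comparisons that hold it, library 14; the other 15 with laser were not left out singly. Libraries 14, 15, 18, 21 and 23 were left out after seeing the data. The cause of the changes below was not tested, apart from fewer libraries or other genes tested.

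For laser in wild type, the 1 member called became 8 with quantile scaling, 59 with library weights, 4 with the muscle and 9 with the photoreceptor covariate, 8 with only both groups in the fit, 3 without libraries 14, 15 and 18 (585 of 19723 genes called lower), 11 without all 5, and from 0 to 3 when single libraries were left out. For laser in Ceacam1-/- mice, the 3 called became 0 with no filter on low values (172 of 40409 genes called lower), with only both groups (2 of 20299) or with the muscle covariate, 1 without the trend (276 of 19950), with the Y-linked covariate (267 of 19950) or with the photoreceptor covariate, 60 with weights, 5 without libraries 14, 15 and 18, 60 without all 5, and from 0 to 75 when single libraries were left out. For genotype with laser, 0 became 2 with weights. The counts of 0 for the interaction and for genotype without laser held under each alternative run.

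Isoform ratios (log2 differences) over left-out single libraries without laser ran from -2.29 to -1.72 (Cox6a2/Cox6a1), from -1.37 to -0.94 (Cox8b/Cox8a) and from 0.64 to 1.15 (Ndufa4l2/Ndufa4) for laser in wild type. They ran from -3.19 to -1.996, from -2.13 to -1.32 and, for Cox7a1/Cox7a2, from -1.70 to -1.04 for laser in Ceacam1-/- mice. For genotype without laser they ran from -1.09 to 0.10 (Cox6a2/Cox6a1, -0.68 with all libraries), -0.52 to 0.13 (Cox7a1/Cox7a2, -0.28), -0.25 to 0.13 (Cox4i2/Cox4i1, -0.062) and -0.19 to 0.32 (Ndufa4l2/Ndufa4, -0.012). Without libraries 14, 15 and 18, and equally without all 5, genotype with laser gave -0.75 (Cox8b/Cox8a), 0.29 (Cox4i2/Cox4i1) and 0.79 (Ndufa4l2/Ndufa4, against -0.39 with all libraries). Without all 5, laser in wild type gave -2.07 (Cox6a2/Cox6a1) and -1.30 (Cox8b/Cox8a), and genotype without laser 0.080 (Cox7a1/Cox7a2).

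Single members turned direction only where they had not passed the test. In wild type these were Cox4i1 (0.17, muscle covariate) and Ndufa4l2, at -0.086 with the photoreceptor covariate, -0.012 without all 5 libraries and from -0.012 to 0.56 over left-out single libraries. In Ceacam1-/- mice Cox6a1 was 0.0034 with quantile scaling, 0.076 with weights, 0.21 and 0.12 with the muscle and photoreceptor covariates, 0.027 without libraries 14, 15 and 18, and from -0.31 to 0.075 over left-out single libraries. Cox4i2 ran from -0.22 to 0.065 over them. Ndufa4l2 was 0.59 with weights, 0.67 and 0.37 with the muscle and photoreceptor covariates, 0.67 without libraries 14, 15 and 18, 0.32 without all 5, and from -0.58 to 0.054 over left-out single libraries.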
